A study of Rattus norvegicus with 4 samples.

Results

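The genes described here encode the synaptic vesicle and release machinery, read on expression arrays of rat vestibular ganglion neurons. Members were taken by symbol: synaptotagmins, syntaxins and their binding proteins, the SNAP and VAMP families, synapsins, synaptic vesicle glycoproteins, synaptogyrins, complexins, Nsf and its adaptors, active zone and priming proteins, vesicular glutamate transporters, Rab genes whose symbol starts with Rab3, and dynamins. They came to 116 of the 35126 probes on the array, for 84 of the 12111 genes with a probe of a single symbol. Of these, 105 probes for 77 genes could be read, and the 7 genes Syp, Slc17a8, Syn2, Snap47, Stx12, Stxbp6 and Vamp7 were not analysed here because their probes lie in a stretch of the table where names could not be tied to values. Of the 77 genes, 54 were bright enough to be tested and 23 were not. The choice of symbols also took 9 Rab genes outside the Rab3 family, from Rab30 to Rab39a, which act in other membrane traffic.

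Rat vestibular ganglion neurons were captured by laser with immunofluorescent staining of calretinin, which binds calcium, as the guide; the sources used here give no age, strain or treatment. The submitters' design text takes the positive neurons to be calyceal afferents and the negative ones to be dimorphic or bouton afferents. Pooled total RNA of each was hybridised with Cy5 to 1-colour arrays, 2 for the group titled calretinin positive and 2 for the group titled calretinin negative. The sample descriptions call all 4 positive, so the groups rest on the titles, and nothing says that the 2 arrays of a group came from separate animals or pools: p-values then cover only array-to-array spread, possibly just technical.

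A nerve terminal stores transmitter in vesicles that are loaded by transporters, tethered by synapsins and Rab3 proteins, and primed at an active zone built on Bassoon, Piccolo, RIM and Munc13 proteins. Fusion is driven by SNARE proteins of the syntaxin, SNAP and VAMP families when a synaptotagmin binds calcium, and NSF with its SNAP adaptors then takes the SNARE complex apart. Vestibular afferents receive glutamate from hair cells in the ear and release glutamate onto neurons of the brainstem and cerebellum, and their cell bodies in the ganglion hold the transcripts for these central terminals.

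Array medians lay between 0.9896 and 0.992 on the deposited linear intensity scale, and log2 values of the positive pair correlated at r = 0.9896 and of the negative pair at r = 0.994 across the 21070 tested probes, which are not independent replicates. Over these probes the median log2 change, positive minus negative, was 0.11, and it was 0.234 for probes with a mean log2 level over 4. Quantile normalization moved it to 0.01 and cyclic loess to -0.01, so a small change of a bright gene has no settled direction. Calb2, the calretinin transcript, checks the labels and had 291 and 328 on the positive arrays, against 138 and 129 on the negative arrays. Genes of other cells differed in both directions. Gfap, of astrocytes, changed by -5.42, Mog, of central myelin, by -5.42 and Mbp, of myelin, by -3.11 on the log2 scale. The summed level of 9 Schwann and satellite glia genes was 287 to 299.8 on the positive arrays and 347 to 362 on the negative arrays (1 of 8 tested higher, 5 lower), that of 6 astrocyte genes 250.2 to 277 and 436 to 456 (0 higher, 4 lower of 5), and that of 7 oligodendrocyte genes 13.8 to 15.4 and 129 to 132 (0 higher, 2 lower of 3). For 8 endothelial and mural genes the sums were 19.9 to 20.03 and 47.9 to 49.3 (0 higher, 5 lower of 6), for 7 hair cell genes 9.81 to 10.4 and 15.9 to 16.4 (0 higher, 3 lower of 4), for 5 blood and immune genes 89.7 to 93.4 and 155 to 165 (2 higher, 3 lower), and for 5 fibroblast genes 177 to 182 and 124 to 133 (1 higher, 2 lower of 4). The fibroblast sum was carried by Ogn, and without it was 58.7 to 66.4 on the positive arrays and 70.8 to 75.7 on the negative arrays. The Schwann and satellite glia sum was carried largely by Apoe and Prx. Apoe averaged 142 on the positive and 82.7 on the negative arrays, and Prx 107 and 199. The other genes of that list called lower were dimmer: Mbp (log2 change -3.11), Sox10 (-2.25), Ncmap (-1.96) and S100b (-1.28). Among genes called higher were Apoe, of satellite glia (0.78), Cd68, of macrophages (0.43), and Ptprc, of leukocytes (0.35). Of 7 neuron genes, all tested, 3 were higher and 2 lower, with sums of 709 to 718 on the positive arrays and 682 to 692 on the negative arrays. The part of these other cells in the results below was not tested, and in such bulk samples fewer cells of a type and less RNA per cell cannot be told apart.

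Of the 54 tested release genes, 29 were higher and 9 lower on the positive arrays, and 16 did not pass (limma, Benjamini-Hochberg adjusted p under 0.05, the brightest probe standing for its gene). Among all tested probes 40.6% were higher and 23.6% lower, so the share of release genes that were higher, 53.7%, has to be read against a high background. The members' median log2 change was 0.27, against 0.11 over all tested probes. It was 0.0976 after quantile and 0.0552 after loess normalization, when 23 members were higher and 11 lower with either method, against backgrounds of 33% and 28.7% for quantile and 31.7% and 32.2% for loess. Of the 29 higher genes 23 kept that call under both methods, and the 6 that lost it were Bsn, Napb, Nsf, Slc17a6, Syt4 and Vamp8. All 9 lower genes kept theirs, Syngr2 and Vamp4 became lower, and none was called in the opposite direction. Without the 9 other Rab genes the counts were 26 higher and 6 lower of 46.

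**Figure D1:**
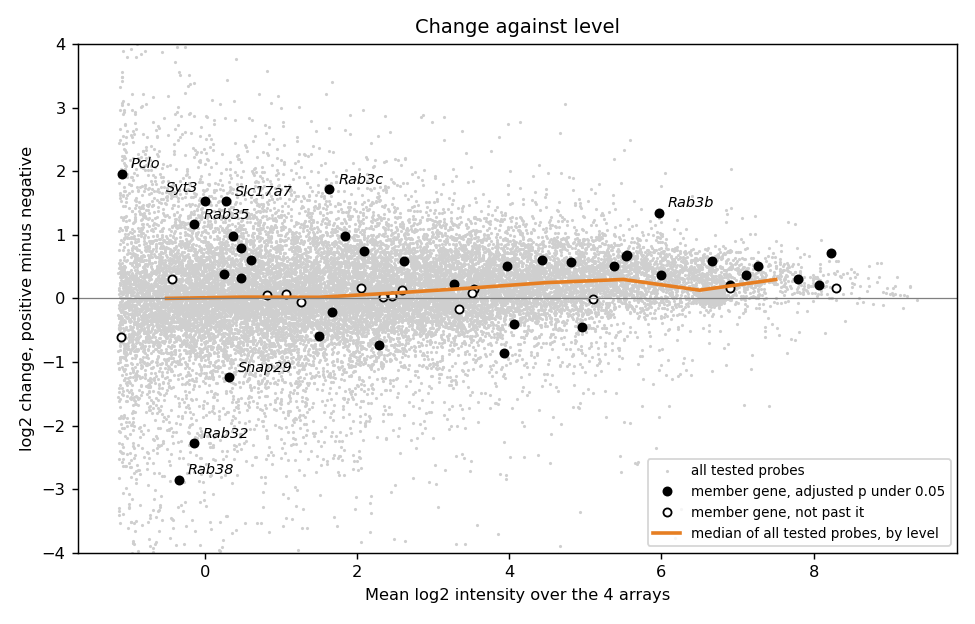
Each point is a probe, with its mean log2 intensity over the 4 arrays on the horizontal axis and its log2 change, positive minus negative, on the vertical axis; grey points are all tested probes (96 lie beyond the axis), black and open circles 53 member genes, and the line is the median of all tested probes by level. Of the 19 member genes with a mean log2 level over 4 the median change was 0.38, where the line lies above 0. Genes such as Rab3b and Unc13b lie above the line and Rab31 and Dnm2 below it.

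Calls are set here beside those of all probes at a similar level. Of the 19 release genes with a mean log2 level over 4, 14 were higher and 2 lower, where 54.7% of all probes at that level were higher and 10.8% lower. After quantile normalization 9 of the 19 were higher and 3 lower, beside 31.7% and 25.2% of probes, and after loess again 9 and 3, beside 32.1% and 30.9%. Of 15 genes between 0 and 2, 9 were higher and 3 lower, beside 35.2% and 30.5% of probes. Between 2 and 4, 4 of 14 were higher and 2 lower, beside 45.1% and 26.5%, and below 0, 2 of 6 were higher and 2 lower, beside 25.1% and 24.2%.

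At least 2-fold differences with groups that did not overlap were found for 9 of the 54 genes, 6 higher (Rab3b, Rab3c, Slc17a7, Syt3, Pclo and Rab35) and 3 lower (Snap29, Rab32 and Rab38). Of all tested probes 8.28% met this criterion as higher and 7.07% as lower, so the numbers, 6 and 3 of 54, lie near the background. Pclo on the negative arrays, and Rab32 and Rab38 on the positive arrays, averaged below the limit for dim probes, an intensity of 0.456, and these 3 passed the filter only through their brighter group. The promoters of 5 of these genes, 4 higher and 1 lower, were chosen after their values were seen and are printed as examples, each from 250 bases before to 50 bases after the gene's start, in the gene's own direction, from RefSeq on GRCr8. They lie at chr5:128858841-128859140, plus strand (Rab3b), chr2:43575894-43576193, minus strand (Rab3c), chr1:104785955-104786254, plus strand (Slc17a7), chr4:21005062-21005361, minus strand (Pclo), and chr11:97113146-97113445, minus strand (Snap29). Capitals mark matches on either strand to the GC box GGGCGG and to GGACAGCG, the right side of the RE1 element bound by the repressor REST.
Rab3b: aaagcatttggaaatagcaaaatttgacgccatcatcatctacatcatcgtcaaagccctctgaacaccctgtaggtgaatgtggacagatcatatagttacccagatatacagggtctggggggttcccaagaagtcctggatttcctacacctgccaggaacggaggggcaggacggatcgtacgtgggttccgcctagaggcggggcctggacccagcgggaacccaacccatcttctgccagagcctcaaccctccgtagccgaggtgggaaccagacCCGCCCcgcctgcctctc
Rab3c: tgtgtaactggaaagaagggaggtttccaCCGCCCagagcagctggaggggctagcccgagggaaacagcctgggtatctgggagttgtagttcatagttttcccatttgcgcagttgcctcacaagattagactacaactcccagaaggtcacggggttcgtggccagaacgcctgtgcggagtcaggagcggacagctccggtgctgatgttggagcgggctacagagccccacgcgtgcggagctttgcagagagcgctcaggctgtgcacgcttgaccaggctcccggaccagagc
Slc17a7: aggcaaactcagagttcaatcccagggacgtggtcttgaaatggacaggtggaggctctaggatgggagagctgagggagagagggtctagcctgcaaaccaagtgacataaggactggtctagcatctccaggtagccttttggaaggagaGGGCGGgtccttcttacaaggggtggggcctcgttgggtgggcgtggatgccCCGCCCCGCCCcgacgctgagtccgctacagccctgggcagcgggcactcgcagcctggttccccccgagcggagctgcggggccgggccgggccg
Pclo: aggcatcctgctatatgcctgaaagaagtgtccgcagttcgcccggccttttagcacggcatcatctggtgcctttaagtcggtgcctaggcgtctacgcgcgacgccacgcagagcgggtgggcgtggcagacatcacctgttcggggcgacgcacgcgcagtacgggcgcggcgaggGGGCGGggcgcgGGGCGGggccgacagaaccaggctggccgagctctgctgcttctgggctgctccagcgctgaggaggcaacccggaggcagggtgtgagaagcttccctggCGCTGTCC
Snap29: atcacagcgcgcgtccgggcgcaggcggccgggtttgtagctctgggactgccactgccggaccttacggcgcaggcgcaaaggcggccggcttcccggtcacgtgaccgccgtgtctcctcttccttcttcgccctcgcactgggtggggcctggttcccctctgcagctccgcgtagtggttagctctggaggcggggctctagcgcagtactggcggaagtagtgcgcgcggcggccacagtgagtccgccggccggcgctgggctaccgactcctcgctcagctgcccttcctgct

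Rab3b and Rab3c each held 1 GC box, Slc17a7 held 3 and Pclo 2, and Snap29 held none. Pclo also held GGACAGCG. Of the 77 genes read, 62 matched a promoter in the table. The GC box stood in 47 of these 62 (75.8%) and in 34.9% of 27457 promoters of the same length, which belong to all kinds of genes, non-coding ones included. GGACAGCG stood in 5 of 62 (8.06%: Pclo, Rab3gap1, Stx3, Syt6 and Unc13b), against 1.28% of all, the TATA box TATAAA in 1 (1.61%, Stxbp3) against 14.3%, and the cyclic AMP response element TGACGTCA in 3 (4.84%: Napa, Syn1 and Vamp1) against 1.91%. The left side of RE1, TTCAGCACC, stood in 0 of 62, against 0.379% of all.

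Sv2a, a vesicle glycoprotein and the binding site of the drug levetiracetam, had intensities of 121 and 126 on the positive arrays, against 86.5 and 78.8 on the negative arrays. Its paralog Sv2b had 2.37 and 2.26 against 3.53 and 3.42. Neither pair overlapped, and the 2 paralogs changed in opposite directions: Sv2a was higher by 0.58 ± 0.08 on the log2 scale (SE; adjusted p = 0.000106, limma, Benjamini-Hochberg) and Sv2b 1.51-fold lower (adjusted p = 0.000125, limma, Benjamini-Hochberg), in every scaling. A dimmer Sv2a probe had 1.10 and 1.10 on the positive arrays, against 1.06 and 0.8897 on the negative arrays, and did not pass (log2 change 0.18; adjusted p = 0.296, limma, Benjamini-Hochberg). Syngr3, a neuronal tetraspan vesicle protein, had 173 and 196 against 133 and 124, a log2 change of 0.52 ± 0.08 (SE) that was 0.24 after quantile normalization. Syngr2, its widely expressed relative, had 10.2 and 8.93 against 10.6 and 10.9, and passed as lower only after normalization (adjusted p = 0.0804 as deposited, limma, Benjamini-Hochberg).

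The synapsins, which coat vesicles and tether them to the cytoskeleton, were read for 2 genes. Syn1 had 1.70 and 1.997 on the positive arrays, against 0.985 and 1.14 on the negative arrays, which is higher by 0.80 ± 0.13 on the log2 scale (SE; adjusted p = 0.000455, limma, Benjamini-Hochberg). A dimmer probe for Syn1 gave 1.18 and 0.957 against 0.436 and 0.268, with the negative arrays below the limit on average, so no change is given. Tested on its own spread, the brighter probe was not called (adjusted p = 0.0798, an ordinary linear model per probe with Benjamini-Hochberg adjustment). Syn3 had 3.05 and 2.87 against 3.31 and 3.53 and was lower by a log2 change of -0.21. Of the 6 vesicle membrane and synapsin genes 3 were higher, 2 lower, and 1 did not pass, near the 40.6% and 23.6% of all probes.

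**Figure D2:**
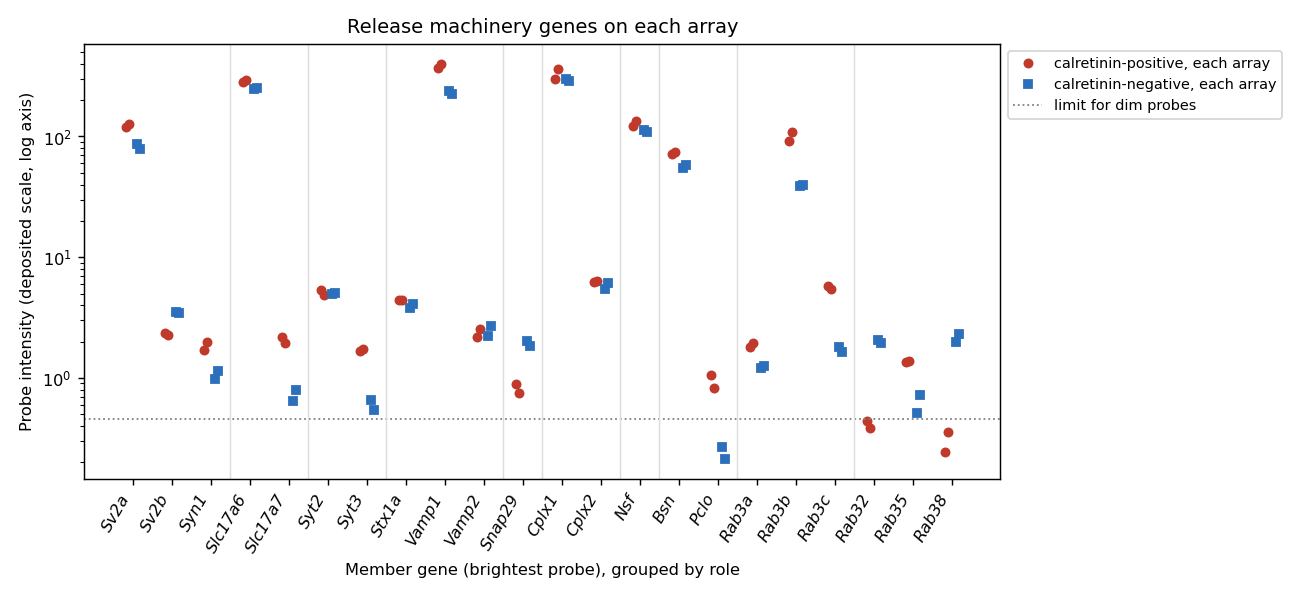
The intensity of each of the 4 arrays is plotted on a log axis for 22 member genes, the neuronal core genes and those with at least 2-fold changes, grouped by role; red circles are positive arrays, blue squares negative arrays, and the dotted line is the limit for dim probes at 0.456. Circles and squares stand clearly apart for Rab3b, Rab3c, Slc17a7, Syt3 and Snap29, and close together for Syt2, Stx1a, Vamp2, Cplx2 and Slc17a6.

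Vesicular glutamate transporters load the vesicles. Slc17a6, which encodes VGLUT2, had 284 and 296 on the positive arrays, against 248 and 250.5 on the negative arrays. The groups did not overlap, but the difference of 0.22 ± 0.07 in log2 (SE; adjusted p = 0.0254, limma, Benjamini-Hochberg) was no larger than the median shift of bright probes, and it was -0.0162 after quantile and -0.086 after loess normalization. Its second probe had 127 and 131 against 124 and 120.1, with a log2 change of 0.08 (adjusted p = 0.328, limma, Benjamini-Hochberg), and passed as lower after quantile (-0.16) and loess normalization (-0.19). Leaving out any array other than the first positive one also ended the call, with adjusted p of 0.0671 to 0.113 (limma, Benjamini-Hochberg). Slc17a7, which encodes VGLUT1, had 2.17 and 1.96 on the positive arrays, against 0.640 and 0.793 on the negative arrays. It was 2.89-fold higher (log2 change 1.53 ± 0.14, SE; adjusted p = 1.09e-05, limma, Benjamini-Hochberg), and 1.56 after quantile and 1.52 after loess normalization.

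Synaptotagmins are vesicle proteins, several of which sense calcium. Of 13 genes read, 3 were bright enough to test. Syt2, a fast calcium sensor, had 5.33 and 4.87 on the positive arrays, against 4.94 and 5.09 on the negative arrays, and the groups overlapped (log2 change 0.02 ± 0.07, SE; adjusted p = 0.814, limma, Benjamini-Hochberg). Syt3, a sensor with high calcium affinity, had 1.67 and 1.74 against 0.650 and 0.540. The 2 groups stood apart, with a 2.88-fold higher level on the positive arrays (log2 change 1.53 ± 0.15, SE; adjusted p = 1.51e-05, limma, Benjamini-Hochberg). Syt4, found on vesicles of neurons and known for weak calcium binding, had 156 and 159 against 126 and 118, a log2 change of 0.37 that was 0.117 after quantile and 0.0882 after loess normalization, with no call in either. A dimmer Syt4 probe had a log2 change of 0.08 and did not pass.

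The other 10 synaptotagmin genes lay below the limit for dim probes on average. In some a group lay above the limit: Syt8 had 0.0187 and 0.0774 on the positive arrays, against 0.767 and 0.906 on the negative arrays, and Syt13 had 0.216 and 0.169 against 0.766 and 0.562. Syt15 had 0.783 and 0.535 against 0.271 and 0.0835. With no filter on dim probes these 3 passed (adjusted p = 0.0011, 0.00309 and 0.0138, limma, Benjamini-Hochberg), Syt8 and Syt13 as lower and Syt15 as higher, and the other 7 did not. No share of all dim probes stands beside these calls, and the first positive value of Syt8 lay near that array's floor of 0.0172.

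Among SNAREs that act at the plasma membrane, 3 of 8 tested genes were higher and none lower, near the 40.6% higher among all probes, and 2 were higher after either normalization. Vamp1, a synaptobrevin of fast-firing neurons, had 367 and 400.5 on the positive arrays, against 239 and 226 on the negative arrays, 1.65-fold higher (log2 change 0.72 ± 0.08, SE; adjusted p = 3.82e-05, limma, Benjamini-Hochberg). A second probe for Vamp1 had 0.831 and 0.725 against 0.419 and 0.494, with a log2 change of 0.77 (adjusted p = 0.011, limma, Benjamini-Hochberg). That probe was 502-fold dimmer, and its first negative array lay below the limit of 0.456, so it adds little to the brighter one. After normalization the brighter probe was still higher on the positive arrays, by 0.47 (quantile) and 0.41 (loess). Vamp2, the other synaptobrevin, had 2.16 and 2.57 against 2.22 and 2.68, and these groups overlapped (adjusted p = 0.732, limma, Benjamini-Hochberg). A dimmer probe for Vamp2, below the limit over the 4 arrays, had 0.223 and 0.223 against 0.809 and 0.602. Its mean level kept it out of the test, and Vamp2 is read here from the brighter probe. With the mean of both probes instead, Vamp2 was called lower (log2 change -0.85, adjusted p = 0.000546, limma, Benjamini-Hochberg). The result for Vamp2 thus depends on whether the dim probe is used.

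Stx1a, the syntaxin of synaptic fusion, had 4.42 and 4.39 on the positive arrays, against 3.80 and 4.08 on the negative arrays, and did not pass (log2 change 0.16 ± 0.07, SE; adjusted p = 0.0798, limma, Benjamini-Hochberg). Stx4, a syntaxin of plasma membrane traffic in many cells, had 5.10 and 4.99 against 2.65 and 2.44. It was 1.98-fold higher with groups far apart (adjusted p = 3.72e-06, limma, Benjamini-Hochberg). Vamp3, Vamp5 and Snap23, which serve exocytosis outside synapses, had log2 changes of 0.17, 0.08 and 0.14 and did not pass, and Vamp8 (0.23) passed only without normalization. The probe of Snap25, the partner of Stx1a and the synaptobrevins, had 0.0535 and 0.0746 on the positive arrays, against 0.0195 and 0.177 on the negative arrays, below the limit throughout, so this probe gave no level for a transcript that neurons are known to hold in abundance.

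Of 7 tested SNAREs of the Golgi and endosomes, 3 were higher and 2 lower, near the 40.6% and 23.6% of all probes. Snap29, a SNARE of several intracellular membranes, had 0.886 and 0.747 on the positive arrays, against 2.01 and 1.84 on the negative arrays. It was 2.36-fold lower with no overlap (log2 change -1.24 ± 0.13, SE; adjusted p = 2.69e-05, limma, Benjamini-Hochberg). Stx6, of the trans-Golgi network and early endosomes, had 11.3 and 11.2 against 20.03 and 21.0, 1.82-fold lower, while a dimmer probe had 0.627 and 1.08 against 0.692 and 0.664, where the groups overlapped. Stx16, of the trans-Golgi network, had 1.83 and 1.80 against 0.978 and 0.861 and was 1.98-fold higher, although a dimmer probe did not pass (log2 change -0.27). Stx7, of late endosomes, had 34.9 and 33.5 against 23.2 and 22.6, and a second probe moved the same way (log2 changes 0.58 and 0.66). Stx5, of traffic into the Golgi, was also higher (log2 change 0.51, and 0.26 after quantile normalization). Vamp4 had 34.1 and 34.4 against 34.03 and 35.2.

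**Figure D3:**
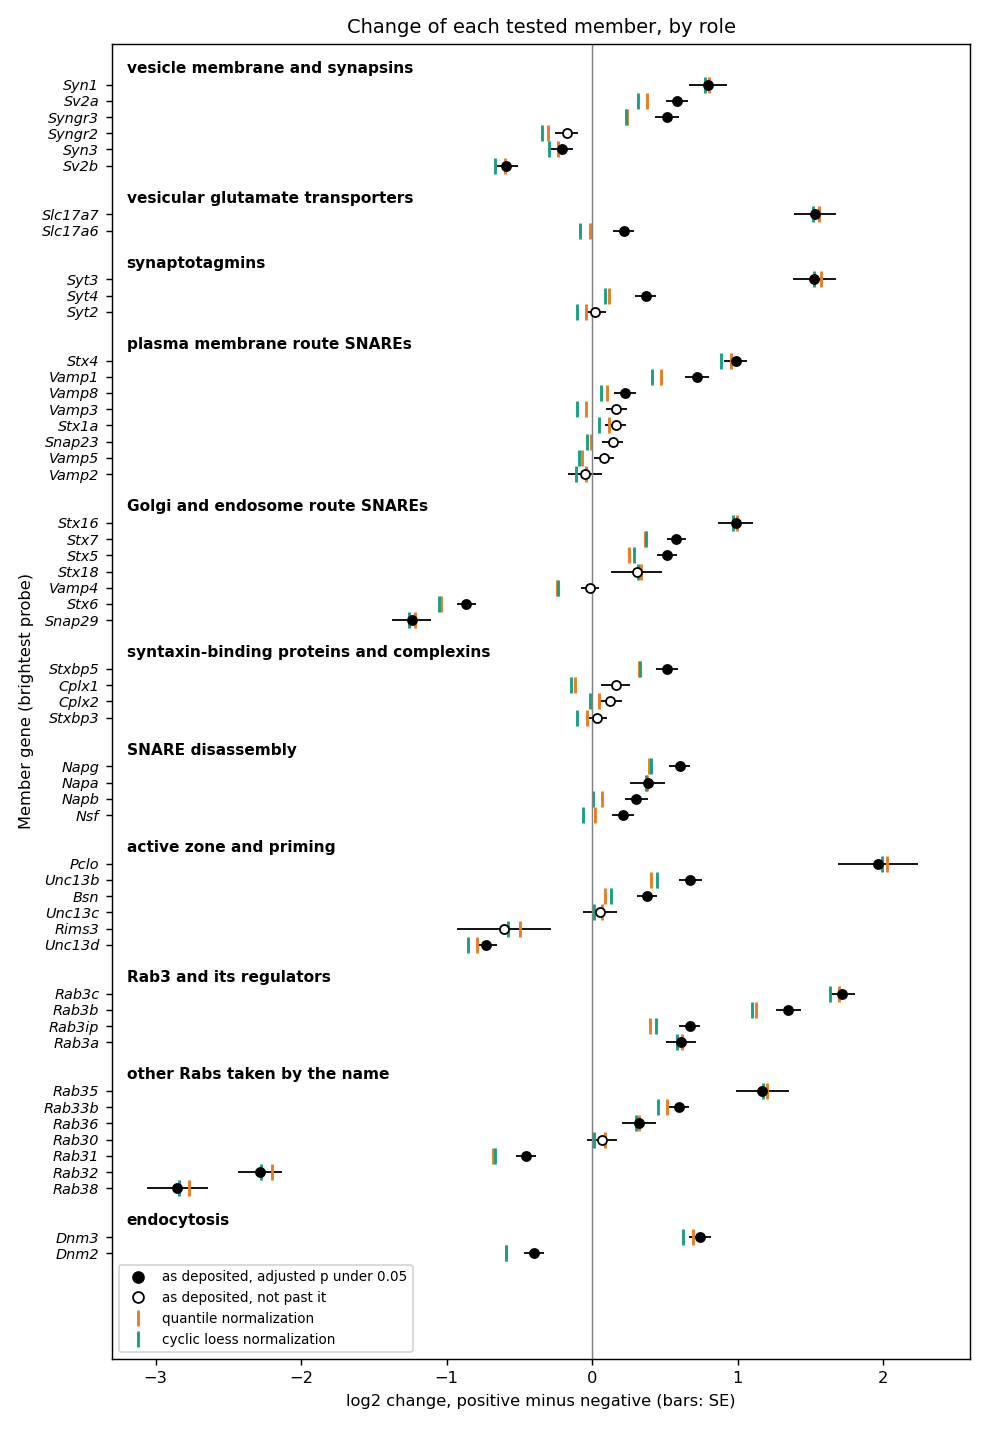
The log2 change, positive minus negative, of 53 tested member genes is shown on the horizontal axis with its SE, listed by role from top to bottom; filled circles passed an adjusted p of 0.05, open circles did not, and coloured ticks give the change after quantile and cyclic loess normalization. The 4 genes of Rab3 and its regulators lie right of 0 with every scaling, and the ticks of bright genes such as Slc17a6, Nsf and Napb lie close to 0.

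Of 4 tested genes for proteins that guide SNARE assembly, 1 was higher, where 40.6% of all probes were higher. Stxbp5, known as tomosyn, which holds SNAREs in a form that cannot fuse, had 17.7 and 19.99 on the positive arrays, against 13.6 and 12.8 on the negative arrays, higher by 0.51 ± 0.08 in log2 (SE; adjusted p = 0.000278, limma, Benjamini-Hochberg). Of its other tested probes, one gave 0.58 and one, which did not pass, -0.063. Of its 2 probes too dim to test, one had 0.0845 and 0.229 on the positive arrays, against 0.618 and 0.514 on the negative arrays, and the other lay below the limit in both groups. Complexins bind the assembled SNARE complex and hold it ready for calcium. Cplx1 had 301 and 363 against 301 and 291, where the first positive and the first negative array nearly coincided (adjusted p = 0.174, limma, Benjamini-Hochberg). Without the first positive array its adjusted p was 0.0197 (limma, Benjamini-Hochberg). Its other probe had 151 and 166 against 127 and 127, and passed as deposited (log2 change 0.31) but not after normalization. Cplx2 had 6.22 and 6.40 against 5.46 and 6.13, and Stxbp3, the partner of Stx4, 5.41 and 5.76 against 5.55 and 5.36, and neither passed.

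All 4 genes of SNARE disassembly were higher as deposited, and 2 of them after either normalization. For 3 of the 4, Napb, Napg and Nsf, the mean log2 level was over 4, where 54.7% of all probes were higher as deposited. Napg, an NSF adaptor, had 25.4 and 28.1 on the positive arrays, against 17.8 and 17.4 on the negative arrays. It was higher by 0.60 ± 0.07 in log2 (SE; adjusted p = 6.43e-05, limma, Benjamini-Hochberg), a change that was 0.39 after quantile normalization. A second Napg probe had 1.95 and 1.57 against -0.0043 and -0.0972, and its mean level kept it out of the test. Napa, another adaptor, had 1.34 and 1.38 against 1.02 and 1.07 and kept its change of 0.38 (0.37 after loess). Napb, the neuronal adaptor, had 234 and 261 against 202 and 198, a change of 0.30 that was 0.00619 after loess normalization. Nsf, the ATPase itself, had 122 and 134 against 113 and 108 on its brightest probe. This difference of 0.21 ± 0.08 in log2 (SE; adjusted p = 0.0341, limma, Benjamini-Hochberg) was 0.02 after quantile and -0.0608 after loess normalization, and leaving out the second positive array or either negative array also ended the call (adjusted p = 0.0509 to 0.206, limma, Benjamini-Hochberg). A dimmer probe for Nsf had 6.16 and 6.36 against 2.25 and 2.16, a change of 1.503 with groups far apart, so the 2 probes of Nsf disagree in size.

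Active zone and priming genes had 3 of 6 tested members higher and 1 lower, near the 40.6% and 23.6% of all probes, and 2 and 1 after either normalization. Pclo, which encodes the scaffold Piccolo, had 1.05 and 0.824 on the positive arrays, against 0.269 and 0.212 on the negative arrays, where it lay below the limit for dim probes and no fold is given (adjusted p = 0.000173, limma, Benjamini-Hochberg). Bsn, which encodes its partner Bassoon, had 71.6 and 74.1 against 54.7 and 57.6, a log2 change of 0.38 that was 0.0899 after quantile and 0.129 after loess normalization. A second Bsn probe moved likewise (0.26, with no call after either normalization), and a dimmer one had -0.37 and did not pass. Unc13b, the priming factor Munc13-2, had 57.6 and 60.5 against 39.2 and 34.9 and was higher by 0.68 on the log2 scale (adjusted p = 4.54e-05, limma, Benjamini-Hochberg). Unc13d, the Munc13 of granule release in blood cells, had 3.82 and 3.76 against 6.07 and 6.50 and was 1.66-fold lower (adjusted p = 1.69e-05, limma, Benjamini-Hochberg). Of the 5 blood and immune genes 3 were lower, namely Csf1r (log2 change -1.20), Alas2 (-1.34) and Cd74 (-0.31), and 2 higher, Cd68 (0.43) and Ptprc (0.35), and their part in the Unc13d result was not tested. Unc13c, another Munc13, had 1.97 and 1.63 against 1.796 and 1.66 and did not pass, nor did Rims3 (0.496 and 0.288 against 0.513 and 0.644). Rims1, Rims2 and Rims4 lay below the limit.

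Rab3 proteins are the small GTPases of synaptic and secretory vesicles. The 4 tested genes of Rab3 and its regulators, Rab3a, Rab3b, Rab3c and Rab3ip, were all higher, under both normalizations too. Of all probes 40.6% were higher as deposited, 33% after quantile and 31.7% after loess normalization. For Rab3b and Rab3ip the mean log2 level was over 4. At that level 54.7% of all probes were higher as deposited, 31.7% after quantile and 32.1% after loess normalization. Rab3b had 91.5 and 108 on the positive arrays, against 38.7 and 39.5 on the negative arrays. It was 2.54-fold higher (log2 change 1.35 ± 0.09, SE; adjusted p = 1.03e-06, limma, Benjamini-Hochberg), and by 1.13 after quantile and 1.10 after loess normalization. Rab3c had 5.82 and 5.48 against 1.80 and 1.63, 3.29-fold higher (log2 change 1.72 ± 0.08, SE; adjusted p = 2.04e-07, limma, Benjamini-Hochberg). For both genes the lowest positive array was more than 2-fold above the highest negative array. Rab3a, the main Rab3 of brain synapses, had 1.81 and 1.95 against 1.198 and 1.26, higher by 0.61 ± 0.11 in log2 (SE; adjusted p = 0.000687, limma, Benjamini-Hochberg). Rab3ip, an activator of the related Rab8, had 56.1 and 61.2 against 36.2 and 37.5, 1.59-fold higher. Rab3d, Rab3gap1 and Rab3il1 lay below the limit, and with no filter on dim probes Rab3il1 was higher (0.372 and 0.555 against 0.205 and 0.105, adjusted p = 0.0274, limma, Benjamini-Hochberg).

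The other Rab genes were read because of their symbols and had 3 higher and 3 lower of 8 tested, beside the 40.6% and 23.6% of all probes. Rab32 and Rab38, paralogs known for traffic to melanosomes and related organelles, were both lower: Rab32 had 0.438 and 0.387 on the positive arrays, against 2.05 and 1.95 on the negative arrays (adjusted p = 1.29e-06, limma, Benjamini-Hochberg). Rab38 had 0.245 and 0.355 against 1.97 and 2.29 (adjusted p = 2.47e-06, limma, Benjamini-Hochberg). Both lay below the limit on the positive arrays, so no fold is given. Rab35, of endosome recycling, was 2.25-fold higher (1.36 and 1.37 against 0.512 and 0.720), with no call when tested on its own spread (adjusted p = 0.0848, an ordinary linear model per probe with Benjamini-Hochberg adjustment over all probes). Rab33b, of the Golgi, was 1.51-fold higher and Rab36 1.25-fold, Rab31, between Golgi and endosomes, was 1.37-fold lower, and Rab30 did not pass. Rab33a had 34.6 on the first positive array and a missing value on the second, against 24.1 and 24.3 on the negative arrays. Set to the floor for missing values it did not pass, and with the value left missing its change in log2 was 0.52 (adjusted p = 0.000429, limma, Benjamini-Hochberg), which rests on 1 positive array.

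Dynamins cut vesicles from the membrane after fusion. Dnm3, found in brain and testis, had 5.57 and 5.44 on the positive arrays, against 3.16 and 3.43 on the negative arrays, 1.67-fold higher (adjusted p = 2.03e-05, limma, Benjamini-Hochberg), while a dimmer probe did not pass (log2 change -0.17). Dnm2, the dynamin of most tissues, had 14.95 and 14.2 against 19.9 and 18.7 and was 1.32-fold lower (adjusted p = 0.000644, limma, Benjamini-Hochberg). A second Dnm2 probe, 188-fold dimmer and not tested, had 0.0343 and 0.184 against 0.0314 and 0.321, where the groups overlapped. The brightest probes of the paralogs thus changed in opposite directions, in every scaling, which rests on 1 probe of each gene. Snap91, a clathrin adaptor of synapses, lay below the limit.

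The 23 genes below the limit had a mean log2 value under that of an intensity of 0.456, and no value above 0.906 on any array. Just inside the limit were Rims3 and Pclo, with mean log2 values of -1.10 and -1.09, and just outside it Stxbp2 and Syt5, with -1.20 and -1.44. Of the 23, 4 passed when no filter was set, 2 higher and 2 lower, and 19 did not. The share of all dim probes that pass without the filter is not given here. These counts can therefore not be read against a background.

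Several genes had more than 1 probe, which shows how far a value depends on the probe. Of the 22 such genes, 13 had at least 2 tested probes. In 4 of these the probes made the same call (Nsf, Stx7, Vamp1 and Syn1), in 9 a probe passed and another did not, and in none did probes pass in opposite directions. The dimmer Syn1 probe lay below the limit on the negative arrays, and the dimmer Vamp1 probe on the first negative array. The sign of the log2 change was shared by all tested probes of 8 genes. The largest gap between probes of a gene was 1.29 (Nsf) and the smallest 0.0501 (Vamp1), on the log2 scale.

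**Figure D4:**
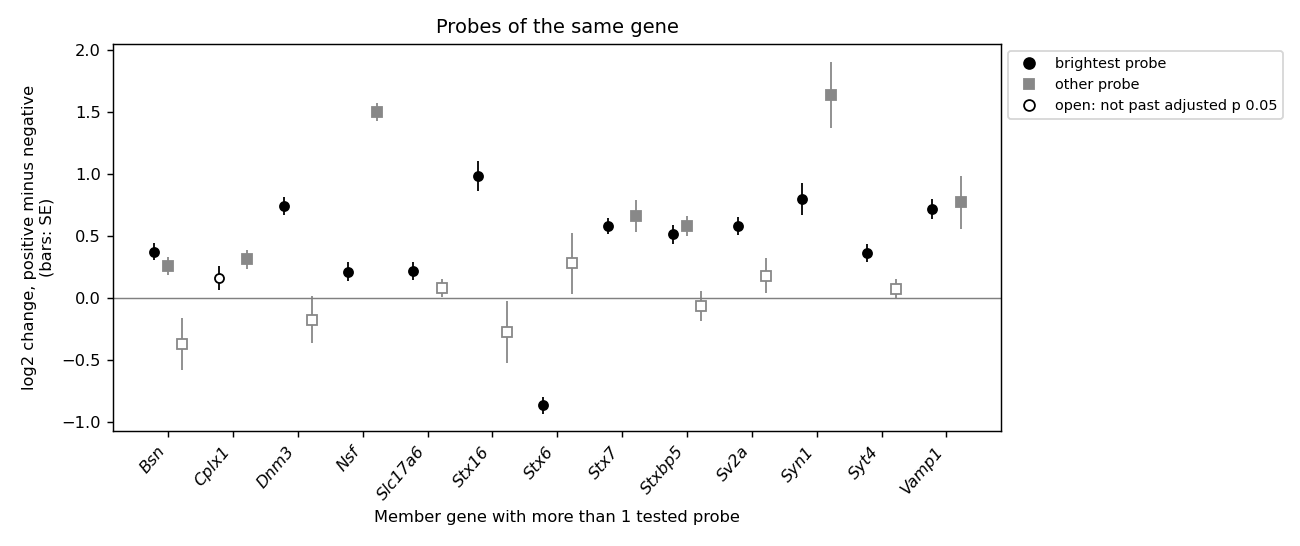
For the 13 member genes with more than 1 tested probe, the log2 change, positive minus negative, of each probe is plotted with its SE; black circles are the brightest probes, grey squares the others, and open symbols did not pass an adjusted p of 0.05. Probes of Vamp1 and Stx7 nearly coincide, although the dimmer Vamp1 probe lay near the limit for dim probes on the negative arrays. Those of Nsf lie 1.29 apart.

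The reading of names was checked on all genes with probes in both named stretches of the table. The log2 changes of such pairs of probes correlated at r = 0.308 (1252 pairs) with the later stretch read 5 rows on, and between -0.0586 and 0.0825 at 20 other offsets, its own rows included. Pairs within the early and within the late stretch correlated at r = 0.218 (664 pairs) and r = 0.310 (601 pairs). Levels of such pairs correlated only at r = 0.115 (2835 pairs) with the later stretch read 5 rows on, and between -0.121 and 0.0174 at the 20 other offsets. Level pairs within the early and within the late stretch correlated at r = 0.147 (1437 pairs) and r = 0.140 (1331 pairs). Probes of the same gene thus agreed little in level, which limits any level read from the brightest probe. All of these are correlations across probes, which are not independent replicates.

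Of 121 further genes of vesicle release and recycling, 95 could be read and 75 tested. Of these, 30 were higher and 11 lower, beside the 40.6% and 23.6% of all probes, and 34 did not pass. The split turned with scaling, to 18 higher and 17 lower after quantile and 18 and 21 after loess normalization. Only 3 passed with at least a 2-fold change and are given by array. Rab11b, a GTPase of recycling endosomes, had 1.43 and 1.40 on the positive arrays, against 0.282 and 0.383 on the negative arrays (adjusted p = 1.78e-05, limma, Benjamini-Hochberg). Rab27a, of secretory granules, had 0.856 and 1.13 against 0.326 and 0.386 (adjusted p = 0.000384, limma, Benjamini-Hochberg). In both genes the negative arrays lay below the limit for dim probes, so both passed the filter only through their brighter group. Cacna2d1, the calcium channel subunit that binds gabapentin, had 0.973 and 0.930 against 3.83 and 3.75, a log2 change of -1.99 (adjusted p = 1.35e-07, limma, Benjamini-Hochberg).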

How the data were processed

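Total RNA of 4 samples was measured on 1-colour (Cy5) arrays, per the labels. The authors deposited probe intensities on a linear scale, in 1 value table; array medians near 0.99 show scaling to the median, while the scanner, the background correction and any other scaling step are not stated in the sources used here. The table's code for missing was read as such, and entries that were missing or not above 0 took the 1st percentile of positive intensities on their array (9 probes missing on all arrays were left out). Intensities were turned to log2, and probes with a mean log2 value below the 40th percentile, or an intensity of 0.456, were dropped, and 21070 were tested. Names came from the platform annotation, at the probe's own row in the early part (7449 single-symbol probes) and 5 table rows later in the late part (7218); 2010 between them were not named. All 116 member probes had their gene ID in a RefSeq rat gene table.

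Positive was compared with negative with limma 3.58.1 in R 4.3.3 (a linear model per probe and eBayes with an intensity trend; two-sided), Benjamini-Hochberg adjusted over all tested probes at 0.05. A gene was read from its brightest probe. Values by array are given for core release genes and for genes with an adjusted p under 0.05, at least a 2-fold change and no overlap, and for other members, chosen after their values were seen. Of the further pathway genes, up to 5 in each direction with the smallest p were to be named. Members and lists were chosen with earlier results of these data known. The number of arrays limits the precision; with 2 arrays a group the smallest p of an exact permutation test is 0.333. The fit was tested on simulated data. Alternatives were normalization, filters, floors, variance priors, the replicate block, probe means, name readings, the threshold and leaving out each array. Figures were drawn with matplotlib 3.10.9.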

Additional observations from a re-analysis of the deposited data

How the results depend on the processing

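Counts of release genes, 29 higher and 9 lower, stayed within 1.5 times under quantile and loess normalization, other filters, floors and variance priors. The same held with missing values left missing, with probe means and at a threshold of 0.10. It also held with late names read at their own rows, where log2 changes of probe pairs did not correlate (r = -0.00851). Steady counts therefore do not show that they are particular to release genes. When each probe was tested on its own spread, 7082 probes, 18 higher release genes, and 11 higher and 4 lower further pathway genes were called. With the late part left out, which leaves fewer genes, 17 release genes were higher and 5 lower, and 13 and 5 of the further genes. The 7082 probes are not split by direction, and no share of all probes is given for the setting without the late part. The counts of either setting can therefore not be read against a background. Further pathway genes, 30 higher and 11 lower, were 18 and 17 with quantile and 18 and 21 with cyclic loess normalization. Slc17a6 turned from 0.22 to -0.0162 (quantile) and -0.086 (loess), and Nsf from 0.21 to -0.0608 (loess); the cause was not tested.

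Without each array in turn the fit called 12262 to 12764 probes, 25 to 29 higher and 8 to 12 lower release genes, and 27 higher and 8 to 13 lower further genes; this assumes that the array left alone varies as the other pair does. With the replicate block 13711 probes, 29 higher and 10 lower release genes, and 32 higher and 12 lower further genes were called; deviations from the group means showed no pairing by number (r = 0.000316 over 21070 probes). Over 15 settings and 22 followed genes, 297 of 320 values had the same direction and call, 17 lost a call, 3 gained one and 3 reversed. The followed genes were tested core genes and genes picked from these same arrays by adjusted p, at least a 2-fold change and no overlap. Steady calls of the picked genes were therefore likely from the start. Dim probes limit most synaptotagmin and Rims genes.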
